A study of Homo sapiens with 12 samples.

Results

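IGF1, the clearance receptor IGF2R, the insulin-like growth factor (IGF) binding proteins IGFBP2 to IGFBP6 and the insulin receptor substrates IRS1 and IRS2 were followed through 4 groups of TC71 cells, a human Ewing sarcoma line. The 9 genes were chosen by symbol, and 8 of them were found among the 21569 genes of a table of read counts by their Ensembl identifiers. IGFBP3 was not analysed here. The groups were a line labelled as a rescue of ID2 knockout clone 2, ID2 knockout clone 2, ID2 knockout clone 1 and wild-type TC71, with 3 libraries of polyadenylated RNA each. ID2 is a helix-loop-helix protein that binds E proteins, which are among the factors that recognise E-boxes, and holds them off DNA. Each knockout line was 1 clone, so a difference between a clone and wild-type cells cannot be told apart from a difference that the clone carried for another reason. The rescue was likewise labelled as 1 line, without a control line of its own among the groups. Its differences from clone 2 carry the same limit. The labels give neither the way in which ID2 was put back nor a separate culture for each library. The p-values therefore speak of the scatter among these libraries alone, and that scatter may be technical.

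IGF1 and IGF2 are secreted hormones that act through the tyrosine kinase receptor IGF1R and, less strongly, through the insulin receptor INSR. The secreted binding proteins hold most of the IGF outside cells and are cut by proteases that set it free, while IGF2R carries IGF2 and mannose 6-phosphate tagged enzymes to lysosomes without signalling. The activated receptors phosphorylate IRS1 and IRS2, which pass the signal to PI3 kinase and AKT. Ewing sarcoma cells are known for their reliance on IGF1R signalling.

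The sequence before the transcription start of the members that moved most is given first. The factors that ID2 holds back are among those that bind E-boxes, and an E-box alone does not name its factor. The windows are the 250 bases before a RefSeq gene start (assembly GRCh38.p14), written on the strand of the gene, and capitals mark each E-box CANNTG. The pattern reads the same on both strands. CAGCTG is a special case of it. The other special cases searched were CACCTG, on both strands, and the palindrome CACGTG. IGF1 is shown at both of its starts because it rose most among the members called higher in both clones. IGFBP4 and IGFBP5 are shown because they had the largest rise and the largest fall in clone 1.
IGF1 start 1, chr12:102481748-102481997, minus strand: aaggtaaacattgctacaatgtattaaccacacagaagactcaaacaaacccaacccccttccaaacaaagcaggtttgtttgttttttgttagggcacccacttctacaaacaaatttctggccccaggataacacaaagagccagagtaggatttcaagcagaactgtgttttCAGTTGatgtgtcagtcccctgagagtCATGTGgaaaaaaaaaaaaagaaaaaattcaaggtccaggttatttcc
IGF1 start 2, chr12:102478551-102478800, minus strand: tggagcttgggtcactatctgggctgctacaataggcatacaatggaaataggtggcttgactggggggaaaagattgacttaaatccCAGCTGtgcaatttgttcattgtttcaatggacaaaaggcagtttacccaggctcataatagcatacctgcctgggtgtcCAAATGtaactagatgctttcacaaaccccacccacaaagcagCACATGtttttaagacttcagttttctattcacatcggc
IGFBP4, chr17:40443200-40443449, plus strand: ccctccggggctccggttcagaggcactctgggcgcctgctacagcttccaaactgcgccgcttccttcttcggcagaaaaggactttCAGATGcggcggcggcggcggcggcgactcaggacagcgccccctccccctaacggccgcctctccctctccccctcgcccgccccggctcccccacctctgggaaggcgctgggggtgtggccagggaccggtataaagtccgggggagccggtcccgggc
IGFBP5, chr2:216695550-216695799, minus strand: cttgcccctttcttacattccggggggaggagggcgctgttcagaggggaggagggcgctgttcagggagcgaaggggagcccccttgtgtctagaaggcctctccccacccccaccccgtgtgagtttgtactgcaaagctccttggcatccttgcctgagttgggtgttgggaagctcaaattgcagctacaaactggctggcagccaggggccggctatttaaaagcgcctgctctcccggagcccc
The windows of IGF1 held 2 and 3 E-boxes, 1 of them CAGCTG at the second start, that of IGFBP4 held 1, and that of IGFBP5 held 0. All 8 members had a window, 11 in all since some genes have several starts. IGF2R held 5 E-boxes, 2 of them CACCTG and 3 CACGTG, and IRS1 held 0. The windows of IGFBP2 held 3, 1 and 0, with 1 CACCTG at the first start. IGFBP6 held 1, a CACCTG, and IRS2 held 1. Of 35116 windows over all genes, 61.8% held CANNTG, 14% CAGCTG, 17.5% CACCTG and 6.34% CACGTG. The repeat GGAAGGAA, a pattern bound by the Ewing sarcoma fusion factor EWSR1-FLI1, was searched on both strands and was in none of the 11 windows, against 3.06% of all windows. A match is a description of these letters and shows no binding, and a window without one says only that the letters are not in it.

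Library totals ran from 19420408 to 29748084 counts, and levels are given in CPM, the counts scaled to library size with TMM factors. ID2 (ENSG00000115738, hg38 chr2:8678845-8684453, plus strand) averaged 41.5 ± 0.537 CPM in the libraries labelled rescue, 50.9 ± 3.16 CPM in clone 2, 18.1 ± 0.777 CPM in clone 1 and 77.9 ± 0.657 CPM in wild-type cells (SD, n = 3 each). ID2 RNA was thus lower in the libraries labelled rescue than in clone 2 (log2 fold change -0.29, SE 0.047, adjusted p = 3.52e-06 by edgeR). The labels do not say how ID2 was put back, and RNA from an added copy may not be counted at this gene. The value is therefore a weak check of that label. A knockout can leave RNA without protein, so ID2 RNA is a weak check of one. All 9 Ewing sarcoma markers were in the table, with sums of 1288 to 1321 CPM in the libraries labelled rescue, 1520 to 1646 CPM in clone 2, 1263 to 1319 CPM in clone 1 and 1331 to 1401 CPM in wild-type cells. Of 6 blood cell markers 1, PTPRC, was in the table, and it stayed at or under 0.153 CPM.

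IGF1, IGFBP2, IGFBP4 and IGFBP5 differed most from wild-type cells in clone 1. IGF1 and IGFBP4 were higher there, IGFBP2 was lower and IGFBP5 was nearly gone. In clone 2 IGF1 and IRS1 were higher, while IGFBP2, IGFBP4 and IGFBP6 did not pass the test. In the libraries labelled rescue IGF1, IGFBP2, IGFBP4, IGFBP5, IRS1 and IRS2 were lower than in clone 2, and IGFBP6 was higher. The threshold for a called change was 0.05 on the p-value of edgeR's quasi-likelihood test after Benjamini-Hochberg adjustment over 17084 genes.

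**Figure D1:**
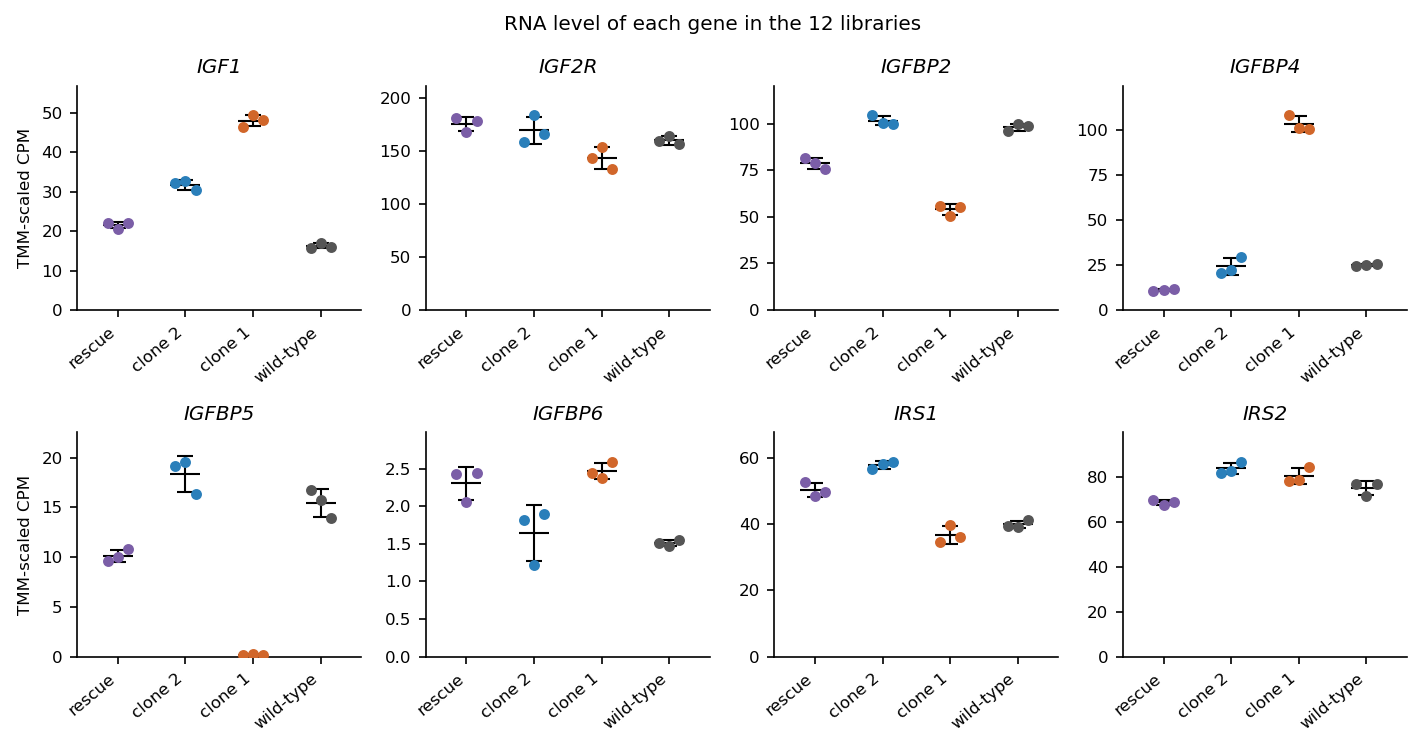
Level of each of the 8 members in every library, in CPM on an axis that starts at 0, with 1 panel per gene, 1 point per library, a line at the group mean and bars for the SD (n = 3 each). IGF1 lies between 46.4 and 49.4 CPM in clone 1 against 15.8 to 17.1 CPM in wild-type cells, and IGFBP5 lies at or under 0.249 CPM in clone 1.

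IGF1, the ligand (ENSG00000017427, hg38 chr12:102395874-102481744, minus strand), rose in both clones. It stood at 22.1, 20.7 and 21.9 CPM in the libraries labelled rescue, 32.2, 32.6 and 30.3 CPM in clone 2, 46.4, 49.4 and 48.2 CPM in clone 1, and 15.8, 17.1 and 16.1 CPM in wild-type cells. The 4 groups did not overlap, and their order was clone 1, clone 2, rescue and wild-type. The rise was 2.95-fold in clone 1 (log2 fold change 1.56, SE 0.055, adjusted p = 1.1e-25 by edgeR). It was 1.95-fold in clone 2 (log2 fold change 0.96, SE 0.059, adjusted p = 1.03e-17 by edgeR). The libraries labelled rescue were below clone 2 (log2 fold change -0.55, SE 0.055, adjusted p = 7.18e-11 by edgeR) and still above wild-type cells (log2 fold change 0.41, SE 0.061, adjusted p = 2.71e-07 by edgeR). Clone 2 was below clone 1 (log2 fold change -0.60, adjusted p = 1.2e-13 by edgeR). The genes whose 4 group means ran most like those of IGF1 were SERINC5 and SLC39A11, with root mean square differences of 0.051 and 0.067 on the centred log2 scale over the 4 groups.

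IGF2R (ENSG00000197081, hg38 chr6:159969099-160113507, plus strand), the receptor that takes IGF2 to lysosomes, varied little. Its level was 181, 168 and 179 CPM in the libraries labelled rescue, 159, 184 and 167 CPM in clone 2, 143, 154 and 133 CPM in clone 1, and 160, 165 and 157 CPM in wild-type cells. Only clone 1 lay wholly below the wild-type libraries, and clone 2 overlapped both the rescue and the wild-type libraries. IGF2R fell in clone 1 against wild-type cells (log2 fold change -0.16, SE 0.044, adjusted p = 0.00203 by edgeR). On chromosome 6 the tested genes of at least 1 CPM had a median log2 fold change of -0.21 in clone 1, and the part of that shift in the value of IGF2R was not tested. In clone 2 the log2 fold change was 0.08 (95% interval -0.01 to 0.17) and did not pass the test, although it did without clone 2 replicate 1 (0.12, adjusted p = 0.0361). Against clone 2 the libraries labelled rescue differed by 0.05 (95% interval -0.04 to 0.14), which passed in 1 of 20 alternatives, the fit without clone 2 replicate 2 (0.12, adjusted p = 0.0227). Against wild-type cells they were higher by 0.13 (adjusted p = 0.00746 by edgeR).

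IGFBP4 (ENSG00000141753, hg38 chr17:40443461-40457731, plus strand), a secreted protein known mainly as an inhibitor of IGF action, had the largest rise. It stood at 10.3, 11.2 and 11.8 CPM in the libraries labelled rescue, 20.8, 22.5 and 29.6 CPM in clone 2, 109, 101 and 101 CPM in clone 1, and 24.4, 25.1 and 25.7 CPM in wild-type cells. Clone 1 stood alone at the top and the rescue libraries at the bottom, while clone 2 overlapped wild-type cells and spread most. In clone 1 it rose 4.12-fold (log2 fold change 2.04, SE 0.063, adjusted p = 1.08e-27 by edgeR). In clone 2 the log2 fold change of -0.06 (95% interval -0.21 to 0.09, adjusted p = 0.519 by edgeR) did not pass, but without clone 2 replicate 3 it was -0.23 and passed (adjusted p = 0.00217). The libraries labelled rescue were lower than clone 2 (log2 fold change -1.12, SE 0.086, adjusted p = 5.78e-14 by edgeR), and by less than 2-fold when clone 2 replicate 3 was left out. They were also lower than wild-type cells (log2 fold change -1.18, SE 0.084, adjusted p = 1.75e-15 by edgeR). NXPH3 and CYP2S1 had the group means most like those of IGFBP4, with root mean square differences of 0.07 and 0.11 on the centred log2 scale over the 4 groups.

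IGFBP2 and IGFBP5 lie tail to tail on chromosome 2 with 7668 bases between them, and both fell in clone 1. IGFBP2 (ENSG00000115457, hg38 chr2:216632828-216664436, plus strand), a binding protein with an integrin-binding motif, stood at 81.6, 78.8 and 75.5 CPM in the libraries labelled rescue and at 105, 100.2 and 100 CPM in clone 2. In clone 1 it stood at 55.9, 50.6 and 55.4 CPM, against 96.1, 99.6 and 98.6 CPM in wild-type cells. No group overlapped another, although clone 2 came within 1 CPM of the wild-type libraries. IGFBP2 fell in clone 1 (log2 fold change -0.87, SE 0.042, adjusted p = 5.65e-21 by edgeR), while the clone 2 value of 0.05 (95% interval -0.03 to 0.13) did not pass. The libraries labelled rescue were lower than clone 2 by a log2 fold change of -0.37 (adjusted p = 5.7e-10 by edgeR) and lower than wild-type cells by -0.32 (adjusted p = 5.98e-09 by edgeR).

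IGFBP5 (ENSG00000115461, hg38 chr2:216672105-216695525, minus strand) is a secreted binding protein that also attaches to the matrix. It stood at 9.62, 9.96 and 10.8 CPM in the libraries labelled rescue, 19.2, 19.6 and 16.3 CPM in clone 2, 0.200, 0.249 and 0.124 CPM in clone 1, and 16.7, 15.7 and 13.9 CPM in wild-type cells. Over the 3 libraries of a group these levels rest on 802 reads in the libraries labelled rescue, 1288 in clone 2, 14 in clone 1 and 1132 in wild-type cells. IGFBP5 was 77.4-fold lower in clone 1 than in wild-type cells (log2 fold change -6.27, SE 0.19, adjusted p = 6.08e-28 by edgeR). At 14 reads this SE is likely too small, and leaving out 1 library at a time gave -6.55 to -6.05. In bulk RNA, fewer cells with a transcript and less of it in each cell cannot be told apart. Clone 2 was slightly higher than wild-type cells (log2 fold change 0.26, SE 0.078, adjusted p = 0.00393 by edgeR), with overlapping libraries. That call was lost without clone 2 replicate 1 (log2 fold change 0.21, adjusted p = 0.0507) and without wild-type replicate 3 (0.16, adjusted p = 0.0974). The libraries labelled rescue were lower than clone 2 (log2 fold change -0.86, SE 0.082, adjusted p = 2.61e-11 by edgeR) and lower than wild-type cells (-0.60, adjusted p = 6.62e-08). DPYSL3 and DPYSL5 were closest in their group means, at root mean square differences of 0.31 and 0.33, which is several times the distance found for IGF1.

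The other genes tested within 500 kb of the IGFBP2 and IGFBP5 pair were XRCC5, LINC01963, SMARCAL1 and RPL37A, a window chosen after the values were seen. Their log2 fold changes in clone 1 against wild-type cells lay between -0.55 for LINC01963 and 0.03 for SMARCAL1, with a median of -0.17. In clone 2 against wild-type cells they lay between -0.16 and 0.32.

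IGFBP6 (ENSG00000167779, hg38 chr12:53097436-53102345, plus strand), the binding protein that prefers IGF2, was low in every group. It stood at 2.42, 2.05 and 2.45 CPM in the libraries labelled rescue, 1.82, 1.21 and 1.90 CPM in clone 2, 2.45, 2.38 and 2.59 CPM in clone 1, and 1.51, 1.47 and 1.55 CPM in wild-type cells. Clone 2 overlapped wild-type cells, whereas the rescue and clone 1 libraries lay above them. It rose in clone 1 (log2 fold change 0.71, SE 0.18, adjusted p = 0.000976 by edgeR) and in the libraries labelled rescue against wild-type cells (0.61, adjusted p = 0.00424). The clone 2 value was 0.14 (95% interval -0.27 to 0.54). The libraries labelled rescue were higher than clone 2 (log2 fold change 0.47, SE 0.18, adjusted p = 0.0364 by edgeR), a call that was lost without clone 2 replicate 2 (0.33, adjusted p = 0.185), without rescue replicate 1 (0.45, adjusted p = 0.0893) and without rescue replicate 3 (0.44, adjusted p = 0.089).

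Set side by side per kb of exon, IGFBP2, IGFBP4, IGFBP5 and IGFBP6 changed places. Their summed level was 24.8 ± 0.235 CPM per kb in the libraries labelled rescue, 36.4 ± 1.7 in clone 2, 60.3 ± 2.35 in clone 1 and 35.5 ± 0.46 in wild-type cells (SD, n = 3 each). IGFBP2 made up 66.4% ± 2.06, 58.6% ± 3.51, 18.8% ± 0.717 and 58.0% ± 0.329 of that sum in the rescue, clone 2, clone 1 and wild-type libraries. IGFBP4 made up 20.3% ± 1.53, 30.2% ± 4.41, 78.1% ± 0.842 and 32.1% ± 0.545 of it in the same groups. Clone 1 thus had IGFBP4 in the place that IGFBP2 held in the other 3 groups. IGFBP7, which is not in the sum, averaged 4.08 CPM per kb in clone 1 and 0.180 CPM per kb in wild-type cells. IGFBP5 supplied 6.34% ± 0.433 in the libraries labelled rescue, 7.85% ± 1.1 in clone 2, 0.0492% ± 0.0169 in clone 1 and 6.75% ± 0.683 in wild-type cells. The share of IGFBP6 was 6.90% ± 0.637 in the libraries labelled rescue, against 3.34% ± 0.674 in clone 2.

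**Figure D2:**
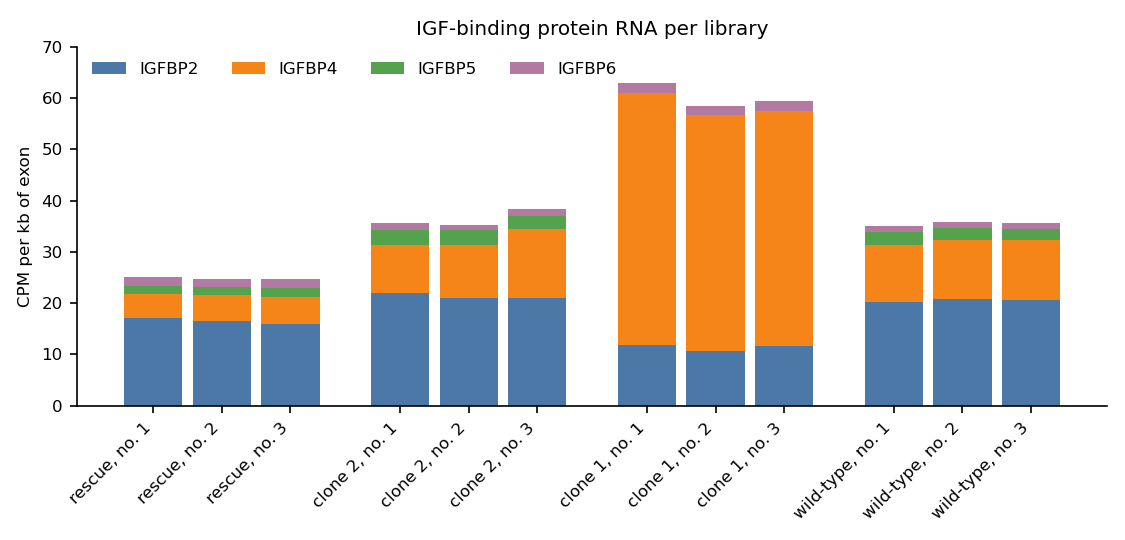
Stacked bars of the level of IGFBP2, IGFBP4, IGFBP5 and IGFBP6 in CPM per kb of exon, with 1 bar per library. The axis starts at 0, and the heights depend on exon lengths merged over all annotated transcripts. The sum is 58.5 to 62.9 CPM per kb in clone 1, mostly IGFBP4, and 35.0 to 35.8 CPM per kb in wild-type cells, mostly IGFBP2.

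IRS1 (ENSG00000169047, hg38 chr2:226731317-226799759, minus strand), a docking protein for IGF1R and INSR, was high in clone 2. It stood at 52.5, 48.4 and 49.7 CPM in the libraries labelled rescue, 56.6, 58.2 and 58.8 CPM in clone 2, 34.4, 39.7 and 36.0 CPM in clone 1, and 39.3, 39.1 and 41.2 CPM in wild-type cells. Only clone 1 and wild-type cells overlapped. The rise in clone 2 was 1.45-fold (log2 fold change 0.53, SE 0.049, adjusted p = 1.9e-12 by edgeR). The libraries labelled rescue were lower than clone 2 (log2 fold change -0.20, adjusted p = 0.000583 by edgeR) and higher than wild-type cells (0.33, adjusted p = 2.09e-07). The clone 1 value of -0.11 against wild-type cells (95% interval -0.22 to -0.01, adjusted p = 0.052 by edgeR) did not pass. It did pass in each fit that left out a library, except those without clone 1 replicate 1, clone 1 replicate 3 and wild-type replicate 3.

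IRS2 (ENSG00000185950, hg38 chr13:109752698-109786568, minus strand), the second docking protein, changed by little in every comparison. It stood at 69.5, 67.5 and 69.0 CPM in the libraries labelled rescue, 81.9, 82.6 and 86.8 CPM in clone 2, 78.2, 78.4 and 84.3 CPM in clone 1, and 76.8, 71.6 and 76.8 CPM in wild-type cells. The rescue libraries lay below all others, and the clones overlapped each other. IRS2 was higher in clone 2 than in wild-type cells (log2 fold change 0.16, adjusted p = 0.00116 by edgeR) and lower in the libraries labelled rescue than in clone 2 (-0.29, adjusted p = 3.1e-07). In clone 1 the log2 fold change was 0.10 (adjusted p = 0.0404 by edgeR), and this call was lost in 12 of 20 other fits, among them every fit that left out a library except those without clone 1 replicate 1 and clone 1 replicate 2. The genes of chromosome 13 had median log2 fold changes of -0.29 in clone 1 and 0.10 in clone 2, and the part of these shifts in the values of IRS2 was not tested.

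Per kb of exon, and over the group means, the members ranked IGFBP4, IGFBP2, IRS2, IGF2R, IGF1, IRS1, IGFBP6 and IGFBP5 in clone 1, at 47.1, 11.3, 9.87, 8.04, 5.91, 3.69, 1.84 and 0.0296 CPM per kb. In wild-type cells the order was IGFBP2, IGFBP4, IRS2, IGF2R, IRS1, IGFBP5, IGF1 and IGFBP6, at 20.6, 11.4, 9.23, 8.99, 4.0, 2.39, 2.01 and 1.12 CPM per kb. The levels of IRS2 and IGF2R, neighbours in wild-type cells with SDs of 0.375 and 0.232 CPM per kb, overlapped between libraries. The ranks also depend on the merged exon lengths.

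**Figure D3:**
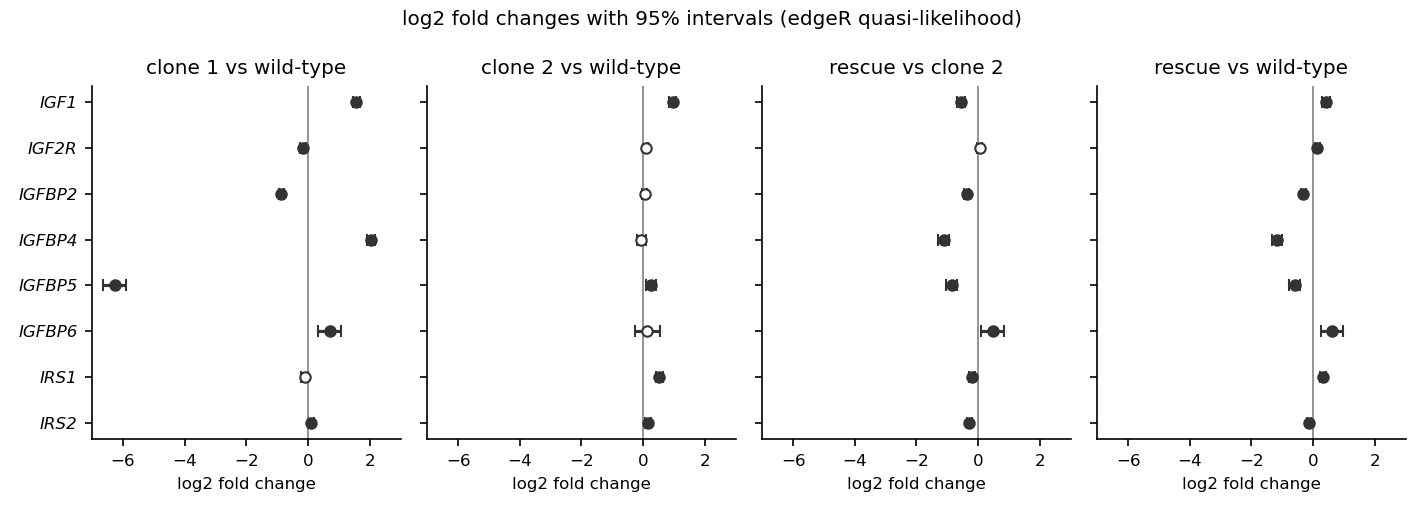
Log2 fold change of each member in the clones against wild-type cells and in the libraries labelled rescue against clone 2 and wild-type cells. Bars show the approximate 95% interval from the edgeR F statistic, filled points the values that were called and open points those that were not. IGFBP5 at -6.27 and IGFBP4 at 2.04 mark the ends in clone 1 against wild-type cells, while the clone 2 values lie between -0.06 and 0.96.

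In clone 1 against wild-type cells 7 of the 8 members were called, against 61.5% of all 17084 genes, and 3 of them changed at least 2-fold, against 13.7%. In clone 2 against wild-type cells 4 were called, all higher, against 62.1% of all genes. By edgeR 0 of the 8 members reached 2-fold there, against 13.3%. The largest log2 fold change was 0.96, for IGF1, so no p cutoff could change that count. It was also 0 with DESeq2 and with limma-voom. With upper quartile scaling IGF1 alone reached 2-fold. Comparing the libraries labelled rescue with clone 2, 7 members were called, against 39.2%, and 1 changed at least 2-fold, against 4.95%. Comparing them with wild-type cells, all 8 were called, against 58.4%, and 1 changed at least 2-fold, against 10.8%. Between clone 2 and clone 1, 7 were called, against 62.2%, and 2 changed at least 2-fold, against 13.9%. The median absolute log2 fold change of the members was 0.79 in clone 1 against wild-type cells, where that of all genes was 0.29, and 0.15 in clone 2, where that of all genes was 0.31. In the rescue against clone 2 comparison it was 0.42, where that of all genes was 0.17. The comparisons share libraries (wild-type or clone 2), so their values are not independent of each other.

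Markers of other cell types also stood apart in clone 1. The sum of the 5 epithelial markers found was 76.9 to 86.9 CPM in the libraries labelled rescue, 153 to 191 CPM in clone 2, 884 to 952 CPM in clone 1 and 115 to 122 CPM in wild-type cells. The sum of the 6 fibroblast markers found was 118 to 127 CPM in the libraries labelled rescue, 193 to 200 CPM in clone 2, 561 to 588 CPM in clone 1 and 250 to 252 CPM in wild-type cells. A group mean of at least 1 CPM was reached by 2, 4, 4 and 3 of the epithelial and by 4, 4, 5 and 5 of the fibroblast markers in the rescue, clone 2, clone 1 and wild-type groups. KRT8 and KRT18 led the epithelial sum in clone 1, at 504 and 378 CPM. The fibroblast sum was carried by COL3A1, PDGFRB and COL1A1, and single markers did not all follow it. LUM averaged 2.46 CPM in clone 1 and 3.77 CPM in wild-type cells, and COL1A1 averaged 65.1 CPM in clone 2 and 27.4 CPM in wild-type cells. COL1A2 stayed at or under 0.462 CPM in all libraries and CLDN3 at or under 1.03 CPM, and COL1A2, CLDN3 and LUM were each at 0 in at least 1 library. The part of these markers in the values of IGF1, IGFBP2, IGFBP4 and IGFBP5 was not tested.

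Of 87 other genes of the IGF and insulin pathway 77 were tested, and 54 were called in clone 1 and 51 in clone 2 against wild-type cells, which is 70.1% and 66.2%, near the 61.5% and 62.1% of all genes. Among the ligands, IGF2 was close to absent, with 4 reads in the libraries labelled rescue, 22 in clone 2, 45 in clone 1 and 65 in wild-type cells. It averaged 0.05, 0.298, 0.628 and 0.894 CPM in those groups. IGF2 was lower in clone 2 than in wild-type cells (log2 fold change -1.48, SE 0.36, adjusted p = 0.000542 by edgeR), while the clone 1 value of -0.50 did not pass (adjusted p = 0.165). The genes of chromosome 11, where IGF2 lies, had a median log2 fold change of -0.60 in clone 2, and reads that a readthrough transcript from INS may share with IGF2 make its level uncertain. Per kb of exon, IGF1 exceeded IGF2 in each of the 4 groups, at 2.01 against 0.128 CPM per kb in wild-type cells.

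IGF1R and INSR differed between the clones. IGF1R averaged 119 ± 6.14 CPM in the libraries labelled rescue, 114 ± 4.68 CPM in clone 2, 163 ± 3.52 CPM in clone 1 and 127 ± 4.25 CPM in wild-type cells (SD, n = 3 each). It rose in clone 1 (log2 fold change 0.36, SE 0.038, adjusted p = 8.41e-11 by edgeR) and fell in clone 2 (-0.16, SE 0.039, adjusted p = 0.000514). INSR stood at 20.7, 20.3 and 20.2 CPM in the libraries labelled rescue, 27.2, 28.9 and 27.9 CPM in clone 2, 45.8, 44.9 and 44.0 CPM in clone 1, and 20.6, 20.04 and 21.4 CPM in wild-type cells. The rescue and wild-type libraries overlapped, and both clones lay above them. INSR rose in clone 1 (log2 fold change 1.11, SE 0.052, adjusted p = 1.31e-21 by edgeR) and in clone 2 (0.43, SE 0.056, adjusted p = 1.01e-08). It was lower in the libraries labelled rescue than in clone 2 (-0.45, SE 0.055, adjusted p = 8.85e-09 by edgeR). Chromosome 19, which holds INSR, had medians of 0.20 in clone 1 and 0.15 in clone 2. INSRR, the insulin receptor-related receptor, stayed under 1 CPM and rose in clone 1 (1.96) and clone 2 (1.72).

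Of the other IGF-binding proteins, IGFBP7, a secreted protein with weak affinity for IGF, stood furthest apart. Its level was 2.20, 1.94 and 1.68 CPM in the libraries labelled rescue, 1.36, 1.27 and 1.48 CPM in clone 2, 7.75, 7.89 and 7.99 CPM in clone 1, and 0.378, 0.284 and 0.379 CPM in wild-type cells. No groups overlapped. IGFBP7 rose 22.1-fold in clone 1 (log2 fold change 4.47, SE 0.19, adjusted p = 8.54e-23 by edgeR) and also in clone 2 (1.95, SE 0.28, adjusted p = 8.85e-08). The wild-type level rests on 26 reads over 3 libraries, so the size of both rises is uncertain. The matricellular genes CCN1 and CCN2 rose in clone 1 (log2 fold changes 0.73 and 0.68) and fell in clone 2 (-1.62 and -0.96). CCN3, at 0.660 CPM in wild-type cells, fell in both clones (-2.68 in clone 1 and -2.30 in clone 2).

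The proteases that release IGF from its binding proteins, with their inhibitors, had 6 of 7 tested genes called in each clone, which is 85.7%, against 61.5% of all genes in clone 1 and 62.1% in clone 2. ADAM12, a protease of IGFBP3 and IGFBP5, rose in clone 1 (log2 fold change 2.11) and in clone 2 (1.12). The stanniocalcins STC1 and STC2, which block the protease PAPPA, fell in clone 1 (-1.70 and -0.92) and in clone 2 (-0.96 and -0.61). STC1 averaged 4.90 ± 0.245 CPM in the libraries labelled rescue, 2.33 ± 0.376 CPM in clone 2, 1.43 ± 0.281 CPM in clone 1 and 4.54 ± 0.133 CPM in wild-type cells, and was higher in the libraries labelled rescue than in clone 2 (log2 fold change 1.06, SE 0.14, adjusted p = 9.2e-08 by edgeR). STC2 was lower in the libraries labelled rescue than in clone 2 (-0.27, adjusted p = 0.00322 by edgeR). Chromosome 8, which holds STC1, had medians of -0.21 in clone 1 and -0.22 in clone 2. PAPPA, the protease that cuts IGFBP4, is named here after its values were seen. It averaged 41.1 ± 4.70 CPM in the libraries labelled rescue, 56.8 ± 3.16 CPM in clone 2, 26.6 ± 0.429 CPM in clone 1 and 45.1 ± 0.328 CPM in wild-type cells. PAPPA fell in clone 1 (log2 fold change -0.76, SE 0.06, adjusted p = 1.79e-14 by edgeR) and rose in clone 2 (0.33, SE 0.054, adjusted p = 1.53e-06). ADAMTS1, a matrix protease, likewise fell in clone 1 (-1.09) and rose in clone 2 (0.37).

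**Figure D4:**
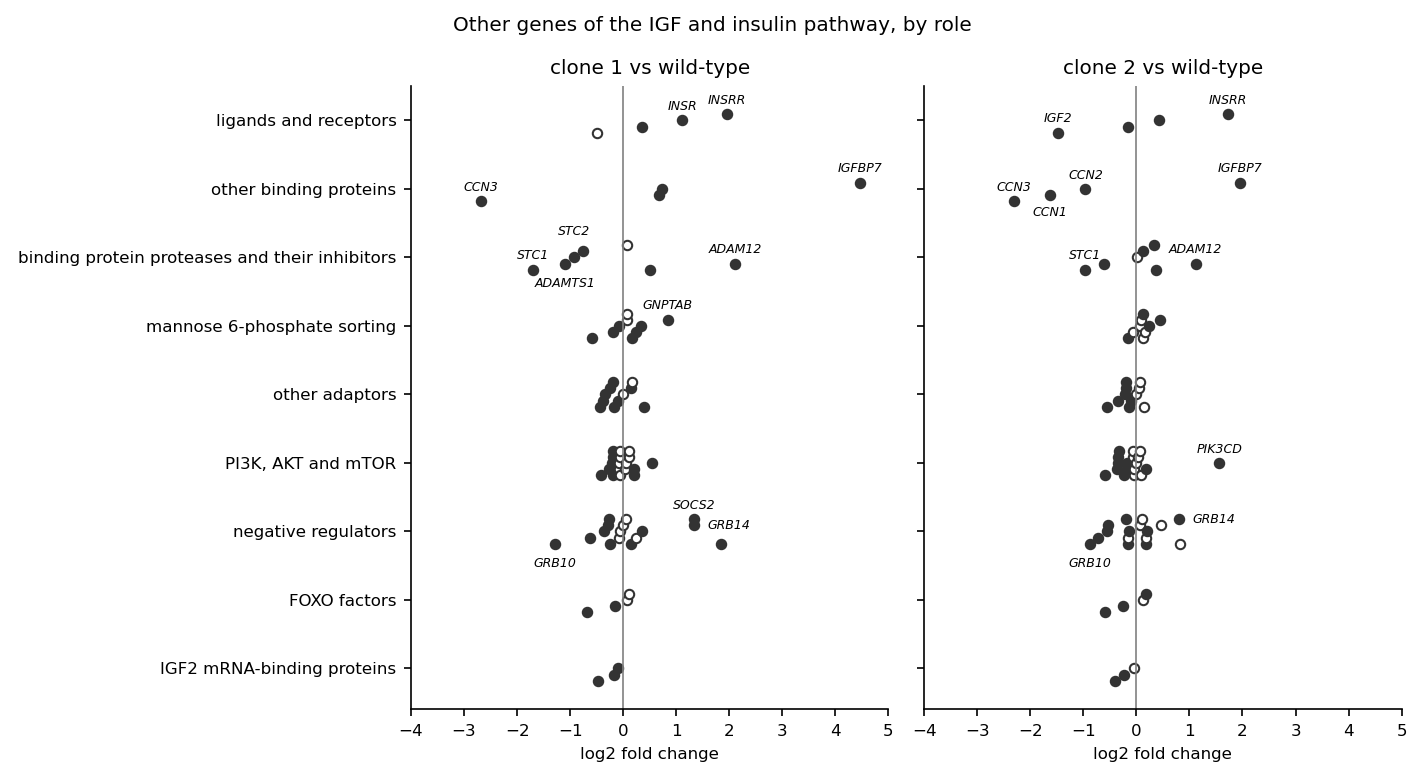
Log2 fold changes against wild-type cells of other tested genes of the IGF and insulin pathway, 1 row per group of genes and 1 panel per clone, filled where called and open where not. IGFBP7 lies furthest to the right in both panels, at 4.47 in clone 1 and 1.95 in clone 2, and CCN3 furthest to the left, at -2.68 and -2.30.

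Among the negative regulators of the receptors, 11 of 16 tested genes were called in clone 1 and 10 of 16 in clone 2, which is 68.8% and 62.5%, near the 61.5% and 62.1% of all genes. GRB10, an adaptor that binds IGF1R and INSR and dampens them, averaged 42.7 ± 0.268 CPM in the libraries labelled rescue, 38.7 ± 0.514 CPM in clone 2, 29.2 ± 1.78 CPM in clone 1 and 71.0 ± 1.5 CPM in wild-type cells (SD, n = 3 each). It fell in clone 1 (log2 fold change -1.29, SE 0.047, adjusted p = 2.66e-25 by edgeR) and in clone 2 (-0.88, SE 0.045, adjusted p = 4.21e-20), and the libraries labelled rescue were slightly above clone 2 (0.14, adjusted p = 0.0152). Its relative GRB14 rose in clone 1 (1.33) and clone 2 (0.80). SOCS2, a feedback inhibitor of growth hormone signalling, rose in clone 1 (1.34), while its clone 2 value was 0.06 and did not pass.

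Of the other adaptors, 9 of 11 tested genes were called in clone 1, against 61.5% of all genes, and 7 of 11 in clone 2, against 62.1%. GAB1, a docking protein downstream of several receptors, fell in clone 1 (log2 fold change -0.44) and in clone 2 (-0.35). The PI3 kinase, AKT and mTOR genes had 9 of 19 called in clone 1 and 11 of 19 in clone 2. These shares were 47.4% beside the same 61.5%, and 57.9%, near the same 62.1%. PIK3CD, a catalytic subunit, averaged 5.70 ± 0.737 CPM in the libraries labelled rescue, 8.60 ± 0.869 CPM in clone 2, 2.15 ± 0.348 CPM in clone 1 and 2.90 ± 0.153 CPM in wild-type cells. It rose in clone 2 (log2 fold change 1.56, SE 0.13, adjusted p = 5.84e-14 by edgeR) and fell in clone 1 (-0.41, SE 0.16, adjusted p = 0.0294).

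The exons of IGF1, IGFBP5 and IRS2 overlap antisense transcripts in GENCODE release 29. The strand setting of the counting is not given in the sources used here, so reads of these partners cannot be told apart from those of the genes.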

How the data were processed

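RNA of 12 libraries of TC71 cells was sequenced, 3 in each of 4 groups that were assigned from their titles. What was deposited are unnormalised counts of reads for each gene, per the labels. FastQC and STAR with hg38 are named, without tool versions, per the submitters' processing notes. Not given in the sources used here are the counting tool, its strand setting, the annotation and the table's filter. A gene name table supplied symbols (20717 of 21569 identifiers matched), and GENCODE release 29 gave coordinates (20825 matched).

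The test was that of edgeR 4.0.16 under R 4.3.3 (quasi-likelihood F test, TMM factors, a minimum count of 10, 1 mean per group, all 12 libraries and 8 residual degrees of freedom). Adjusted p-values are Benjamini-Hochberg over 17084 genes, which held at least 99.93% of each library's counts. SEs and 95% intervals were derived from the log2 fold change and its F statistic. They are approximate, and likely too narrow where a large change rests on few reads. The common biological coefficient of variation was 2.95%. Replicate libraries differed beyond sampling noise (chi-square per degree of freedom 1.58 to 3.4). The procedure was also run on simulated counts with the same biological coefficient of variation for every gene. Far fewer genes were changed there than were called in these data. Alternatives were other scalings and filters, DESeq2 1.42.0, limma-voom (limma 3.58.1), only the compared groups, a replicate block and each library left out.

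The members, the gene lists and the tests were chosen with earlier results of these data known. Named were all members, ID2, the tested ligands, receptors, other binding proteins and IGF2 mRNA-binding proteins, and of each other list up to 4 genes called against wild-type cells with at least 1.5-fold change, a mean of 1 CPM and no overlap. For a member whose log2 group means span at least 1, the 2 genes of at least 1 CPM with the most similar centred group means were named, after adding 0.5 CPM. For 1 gene under this rule no result is printed or plotted here.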

Additional observations from a re-analysis of the deposited data

Results flagged for a closer look

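The effect of the 2 knockout clones against wild-type cells differed for 7 of the 8 members and for 62.2% of all genes, by the edgeR test of clone 2 against clone 1, which is the test of that difference since both share the wild-type libraries. The difference in log2 fold change, clone 2 minus clone 1, was -0.60 for IGF1 (0.96 in clone 2, 1.56 in clone 1), 0.24 for IGF2R (0.08 and -0.16), 0.92 for IGFBP2 (0.05 and -0.87) and -2.10 for IGFBP4 (-0.06 and 2.04). It was 6.53 for IGFBP5 (0.26 in clone 2, -6.27 in clone 1), -0.57 for IGFBP6 (0.14 and 0.71) and 0.65 for IRS1 (0.53 and -0.11). Adjusted p-values by edgeR ran from 4.29e-29 for IGFBP5 to 0.00662 for IGFBP6, and the IGFBP6 call was lost without clone 2 replicate 2 (-0.42, adjusted p = 0.0591). IRS2 was not among them.

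Of the other genes of the pathway, those called in opposite directions in the clones were listed. The same difference was -0.52 for IGF1R, -2.36 for CCN1, -1.64 for CCN2, 1.09 for PAPPA, 1.46 for ADAMTS1, 1.04 for SORT1, -0.26 for SHC1 and 1.97 for PIK3CD. For SHC1 the libraries of each clone overlapped those of wild-type cells (log2 fold changes 0.15 in clone 1 and -0.11 in clone 2).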

How the results depend on the processing

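Of 800 fold changes of members under 20 alternatives, 761 kept their side of the threshold, 18 came to pass it and 21 no longer passed. The sign turned in 2 of the values that passed neither with all libraries nor under the alternative. Of 400 counts 398 stayed within 1.5 times. With upper quartile scaling 1 member changed at least 2-fold in clone 2 against wild-type cells, IGFBP2 (0.12), IGF2R (0.15) and, in clone 2 against clone 1, IRS2 (0.12) came to pass, and IRS2 in rescue against wild-type cells (-0.09) no longer did. IRS1 in clone 1 passed with DESeq2 size factors (-0.12), without a filter (-0.13) and with a filter of 1 CPM in 3 libraries (-0.12), and IRS2 in clone 1 was lost without a filter (0.08) and with DESeq2 (0.09). IGFBP6 in rescue against clone 2 was lost with DESeq2 (0.48) and with only the groups compared (0.47). The cause was not tested. Leaving out 1 library at a time, the values ran from -0.17 to -0.08 for IRS1, and from 0.05 to 0.12 for IRS2, in clone 1, and in clone 2 from 0.16 to 0.32 for IGFBP5, 0.01 to 0.12 for IGF2R and -0.23 to 0.05 for IGFBP4. In rescue against clone 2 they ran from 0.02 to 0.12 for IGF2R and from 0.33 to 0.57 for IGFBP6, with 0 to 1 members changed at least 2-fold, and in clone 2 against clone 1 from -0.66 to -0.42 for IGFBP6.

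The replicate numbers were not taken as pairs, since no comparison had every same-numbered correlation above 0.1. Between the clones, however, the same-numbered correlations of 0.0541 to 0.101 all exceeded the others, which ran from -0.0856 to -0.0154. With a replicate block the members called stayed at 7, 4, 7, 8 and 7 in the order clone 1, clone 2, rescue against clone 2, rescue against wild-type cells and clone 2 against clone 1, and the genes called were 10577, 10668, 6783, 10004 and 10689. Depth limits IGFBP5 in clone 1, IGFBP7 in wild-type cells, IGF2, INSRR and CCN3, each with few reads.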

Other observations

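The sorting machinery that IGF2R belongs to, 9 genes of mannose 6-phosphate tagging and transport, had 7 genes called in clone 1, against 61.5% of all genes, and 4 in clone 2, against 62.1%, in the comparison with wild-type cells. GNPTAB, the enzyme subunit that starts the tag, averaged 63.3 ± 3.31 CPM in the libraries labelled rescue, 62.7 ± 1.37 CPM in clone 2, 117 ± 2.61 CPM in clone 1 and 65.2 ± 1.49 CPM in wild-type cells (SD, n = 3 each), and rose in clone 1 (log2 fold change 0.84, SE 0.04, adjusted p = 2.47e-21 by edgeR). SORT1, a sorting receptor, fell in clone 1 (-0.59) and rose in clone 2 (0.45).

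The IGF2 mRNA-binding proteins were abundant, with IGF2BP1 at 414 ± 15.2 CPM in the libraries labelled rescue, 433 ± 4.66 CPM in clone 2, 397 ± 4.52 CPM in clone 1 and 448 ± 3.98 CPM in wild-type cells. IGF2BP1 fell in clone 1 (log2 fold change -0.18), as did IGF2BP2 (-0.10) and IGF2BP3 (-0.47). In clone 2 IGF2BP2 (-0.41) and IGF2BP3 (-0.23) fell, and the IGF2BP1 value of -0.05 did not pass. Of 4 FOXO factors, which AKT keeps out of the nucleus, 2 were called in clone 1 and 3 in clone 2, beside 61.5% and 62.1% of all genes, and FOXO6 fell in both (-0.68 in clone 1 and -0.59 in clone 2). RPS6KB2, a kinase downstream of mTOR, fell in clone 2 (-0.60), and it lies on chromosome 11 with its median of -0.60. DDIT4, an inhibitor of mTOR, also fell in clone 2 (-0.53), and it lies on chromosome 10, which had a median of 0.06.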
